A study of Mus musculus with 18 samples.

Results

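The 10 genes described here encode proteins of the nuclear lamina and envelope together with a pair of chromatin proteins whose levels are often followed beside the lamins. They were chosen by name (Lmna, Lmnb1, Lmnb2, Lbr, Tmpo, Emd, Sun1, Sun2, Hmgb1 and Hmgb2), and all 10 were found among the 27179 genes of a table of normalized RNA sequencing counts. All 10 also passed the minimum for testing, a mean of 10 normalized counts over the libraries, as did 14353 genes in all. Hmgb1 and Hmgb2 encode DNA-binding proteins of the nuclear interior and not of the envelope, so that the envelope proper is covered by 8 genes.

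The lamina is a meshwork of A-type and B-type lamin filaments lining the inner nuclear membrane. Membrane proteins such as the lamin B receptor, the lamina-associated polypeptides and emerin tie it to chromatin, and SUN proteins reach across the envelope to the nesprins and so couple it to the cytoskeleton. In mesenchymal cells lamin A/C is the abundant form and rises with tissue stiffness, while loss of lamin B1 is a widely used sign of cellular senescence, in which Hmgb2 is also known to fall.

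The cells were mesenchymal stem cells (MSCs) grown from the bone marrow of male C57 black mice, 6 weeks of age for young MSCs and 18 to 24 months for old MSCs. No transgene or mutant allele was named for any group. Rejuvenated old MSCs were old cells that shared medium with young MSCs for 7 days across a porous insert, with 100000 cells per well, and all cells were used at passage 2 to 5. Each group had 6 libraries, which the labels call biological replicates without saying that they came from separate mice, so p-values measure the spread between these libraries. No library of old MSCs cultured beside old MSCs was analysed here, so the effect of the neighbour's age and that of the insert culture itself cannot be told apart.

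Library depth ran from 22936251 to 29559194 reads, and the fewest reads of any of the 10 genes in any library was 357. The groups differed in markers of other cells. The summed normalized count of 7 macrophage and leukocyte markers was 914 to 1034 in young MSCs, 11733 to 14950 in old MSCs and 11597 to 14330 in rejuvenated old MSCs, and Adgre1 and Ptprc were listed at 0 in the young group. All 7 were lower in young than in old MSCs, where 44.1% of all genes tested were lower. In rejuvenated old against old MSCs, 1 (Itgam) was higher and 1 (Cd68) lower (all genes tested: 21.0% and 20.6%). Of 10 stromal markers, 3 were higher (Ly6a, Pdgfra, Thy1) and 7 lower in young than in old MSCs (all genes tested: 41.6% and 44.1%). In rejuvenated old against old MSCs, 3 were higher (Ly6a, Pdgfra, Cxcl12) and 5 lower (Cd44, Pdgfrb, Vcam1, Col1a1, Lepr), beside 21.0% and 20.6% of all genes tested. Cd44 and Ly6a, which encodes Sca-1, were read in every group. Their means were 2137 and 25100 in young MSCs, 2954 and 6135 in old MSCs and 2399 and 12899 in rejuvenated old MSCs. Thy1 had 198 ± 23.1 (SD, n = 6) normalized counts in young and 1.19 ± 1.24 (SD, n = 6) in old MSCs, and Eng had 163 ± 11.3 and 7340 ± 292. Of 6 endothelial and blood progenitor markers, Pecam1, Cdh5 and Kit had a mean under 10 normalized counts over all libraries. Pecam1 had 17.0 ± 4.51 (SD, n = 6) in young and 6.56 ± 2.87 (SD, n = 6) in old MSCs, and Cdh5 had 1.54 ± 1.38 and 0. Kit went the other way, at 0 in young and 8.74 ± 2.19 in old MSCs. The other 3 were higher in young than in old MSCs (all genes tested: 41.6%). Cd34 had 7006 ± 156 (SD, n = 6) in young and 23.1 ± 3.31 (SD, n = 6) in old MSCs, Kdr 85.7 ± 15.7 and 9.12 ± 5.55, and Tek 16.4 ± 1.55 and 10.8 ± 3.40. In bulk RNA, fewer cells of a type and less RNA per cell cannot be told apart, and the part of these markers in the differences between young and old MSCs was not tested.

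One rejuvenated old library stood apart. Over 45 genes with at least 100 normalized counts in every young library and at most 3 reads in any old library, a set chosen after the data were seen and holding 0 of the 10 genes, rejuvenated old replicate 1 reached 1.96% of the young mean. The other 5 libraries of its group reached 0.0876 to 0.168%. Its Cd34 was 402 normalized counts, against 24.2 to 41.9 in the others. Calls among the 10 genes that change without this library are therefore given both ways. Counts over the marker and gene lists use all libraries unless stated.

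Co-cultured old cells had more RNA of 6 of the 10 genes (Hmgb2, Tmpo, Hmgb1, Lbr, Sun1 and Sun2) than old MSCs alone, and less of 0. All 6 calls also held without rejuvenated old replicate 1. With limma and Benjamini-Hochberg adjustment over all genes tested, 21.0% of genes were called higher and 20.6% lower in this comparison. The median log2 fold change was 0.13 over the 10 genes and 0.01 over all genes tested. The values of the 2 groups did not overlap for 5 of the 10 genes, against 22.0% of all genes. The changes were small. The largest was 1.34-fold for Hmgb2, and 86.4% of all genes tested changed by less than Hmgb2 did. Between young and old MSCs, 4 of the 10 genes were higher in young MSCs (Tmpo, Hmgb2, Sun2, Sun1) and 4 were lower (Lmna, Lmnb1, Lbr, Emd). After centring on chromosome medians, however, Lbr turned, Lmnb1 lost its call and Lmnb2 was called higher in young MSCs. With equal totals Emd lost its call. Over all genes tested, 41.6% were called higher and 44.1% lower, so 8 of 10 called is near the background. The values did not overlap for 7 of the 10 genes, against 73.9% of all genes. Both comparisons use the same old libraries.

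**Figure D1:**
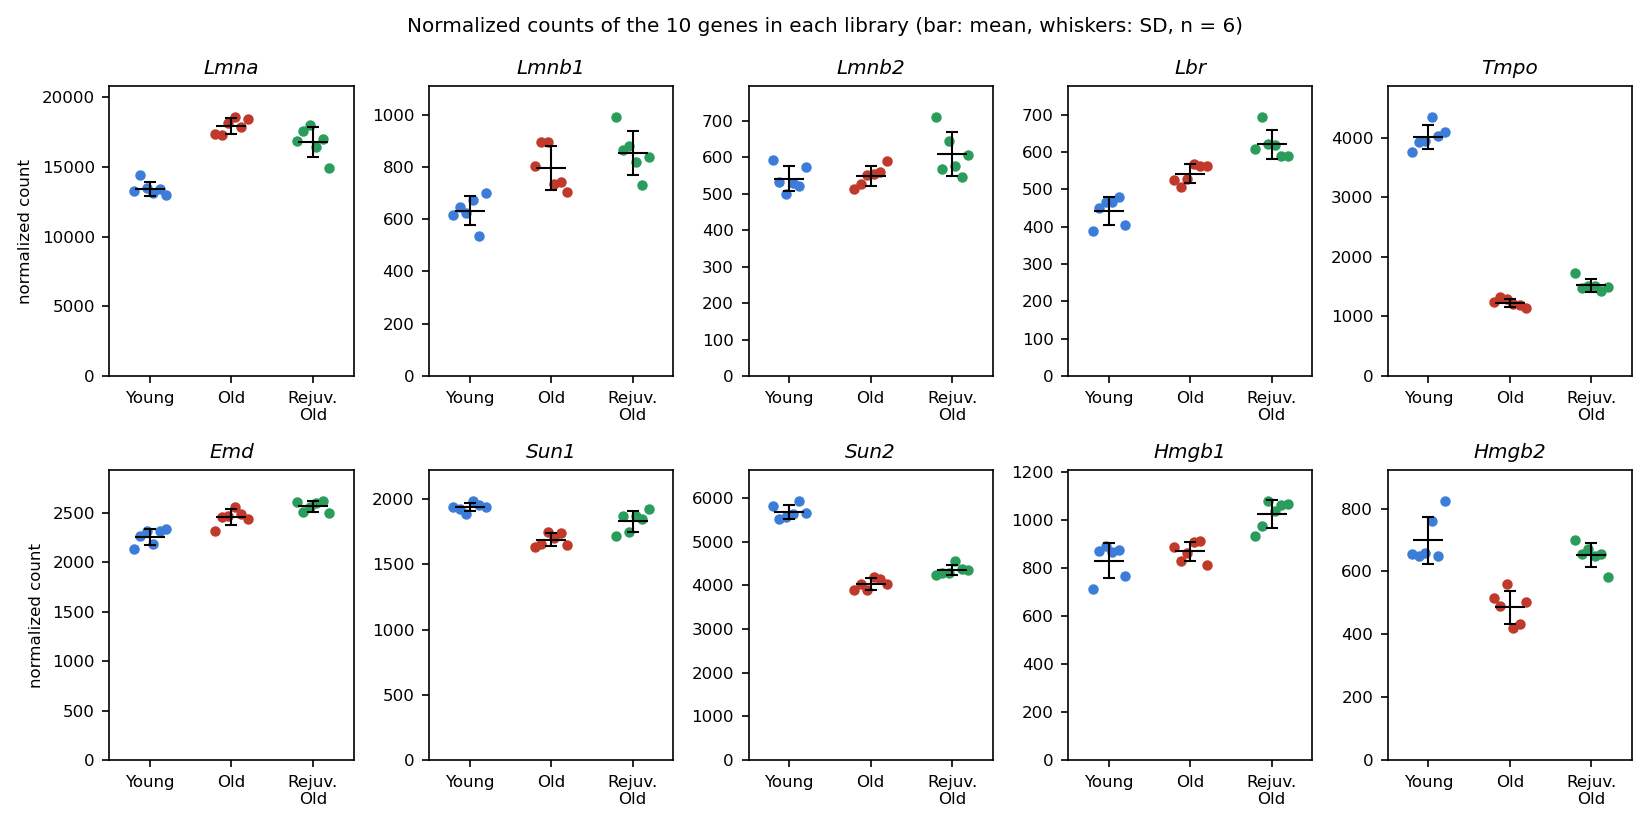
Normalized counts (vertical axes, from 0) of each of the 10 genes in the 6 young, 6 old and 6 rejuvenated old libraries, with libraries as points, the mean as a bar and the SD as whiskers. Tmpo stands at 3757 to 4350 in young MSCs, above 1134 to 1320 in old and 1427 to 1737 in rejuvenated old MSCs.

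The promoters of Hmgb2, Tmpo, Hmgb1 and Lbr are shown because these genes had the largest rises in rejuvenated old MSCs. Each line holds the 250 bases before the annotated start of transcription, from RefSeq on GRCm38.p6 (mm10), written 5′ to 3′ on the strand of the gene. Capitals mark the CCAAT box (CCAAT) and the cell cycle homology region or CHR (TTTGAA, which reads TTCAAA on the other strand), short elements known from promoters of cell cycle genes. The windows are chr8:57511593-57511842 on the plus strand for Hmgb2, chr10:91171620-91171869 on the minus strand for the first of 2 Tmpo promoters, chr5:149053058-149053307 on the minus strand for the first of 2 Hmgb1 promoters, and chr1:181842402-181842651 on the minus strand for Lbr.
Hmgb2: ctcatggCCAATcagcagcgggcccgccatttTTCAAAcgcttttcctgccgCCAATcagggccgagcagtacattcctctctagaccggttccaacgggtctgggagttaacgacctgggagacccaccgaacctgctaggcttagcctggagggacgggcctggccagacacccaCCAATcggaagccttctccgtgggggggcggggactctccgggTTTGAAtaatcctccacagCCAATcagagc
Tmpo: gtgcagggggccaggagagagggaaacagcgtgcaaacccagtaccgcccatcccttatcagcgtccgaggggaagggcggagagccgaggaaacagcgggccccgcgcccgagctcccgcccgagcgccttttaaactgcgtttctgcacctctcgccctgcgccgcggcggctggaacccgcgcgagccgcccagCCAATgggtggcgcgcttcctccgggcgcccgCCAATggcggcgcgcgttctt
Hmgb1: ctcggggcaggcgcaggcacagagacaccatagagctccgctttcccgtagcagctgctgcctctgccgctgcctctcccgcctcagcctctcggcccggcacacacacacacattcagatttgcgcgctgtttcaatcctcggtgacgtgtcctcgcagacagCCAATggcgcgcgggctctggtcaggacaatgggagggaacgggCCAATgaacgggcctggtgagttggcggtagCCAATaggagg
Lbr: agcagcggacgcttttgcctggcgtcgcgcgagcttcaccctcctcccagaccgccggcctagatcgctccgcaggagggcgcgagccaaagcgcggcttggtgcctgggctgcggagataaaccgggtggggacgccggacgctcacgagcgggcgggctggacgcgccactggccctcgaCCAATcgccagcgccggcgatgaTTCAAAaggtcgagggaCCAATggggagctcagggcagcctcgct

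The promoter table held 9 of the 10 genes, and Lmnb1 was not among them. Both strands of 300 bases, from 250 before to 50 after each start, were searched for CCAAT, for TTTGAA and for the E2F element GGCGGGAA, and none of these motifs contains another. Hmgb2 had 4 CCAAT boxes and 2 CHR matches, one of them 30 to 25 bases before the start. Lbr and Sun2 each had 2 CCAAT boxes and 1 CHR match. Over all 32851 promoters of the table, 37.4% held CCAAT, 17.9% TTTGAA, 6.95% both and 2.19% GGCGGGAA. The second Tmpo promoter held 1 CHR match and 1 E2F match, and the first held 2 CCAAT boxes. The first Hmgb1 promoter held 3 CCAAT boxes. Among the rest, Emd held 1 CCAAT box, the Sun1 promoters held 2 and 1, and 1 of the 2 Lmna promoters held 1. The Lmnb2 promoters held none of the 3 motifs in this window. These matches are descriptions of the letters only.

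Lmna (gene number 16905, chromosome 3 from 88481148 to 88509932) encodes lamin A and lamin C and had the highest level per kilobase of the 10 genes in every group. Its lowest, median and highest normalized counts were 12961, 13360 and 14401 in young MSCs, 17265, 18013 and 18586 in old MSCs, and 14910, 16935 and 18026 in rejuvenated old MSCs. Every young library lay below every old one, while the rejuvenated old libraries reached from below the old range into it. Lmna was 1.33-fold higher in old than in young MSCs (log2 fold change of young against old -0.42, SE 0.04, adjusted p = 8.75e-10). In rejuvenated old MSCs it did not pass the test against old MSCs, at -0.10 (95% interval -0.18 to -0.02, adjusted p = 0.0510). It remained 1.25-fold above young MSCs (adjusted p = 7.46e-08). The call between rejuvenated old and old MSCs sat at the threshold. It passed in 10 of 30 alternatives, over which the adjusted p ran from 0.0209 to 0.162, and without rejuvenated old replicate 1 it was 0.0629. The table is by gene, so lamin A and lamin C were not separated.

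Lmnb1 (gene number 16906, chromosome 18 from 56707813 to 56753424) encodes lamin B1. Its lowest, median and highest normalized counts were 537, 635 and 700 in young MSCs, 702, 772 and 894 in old MSCs, and 730, 851 and 991 in rejuvenated old MSCs. The highest young library stood just under the lowest old one. Lmnb1 was lower in young than in old MSCs by 0.33 on the log2 scale (SE 0.07, adjusted p = 0.000311). The median fold change of chromosome 18 genes was also lower, at -0.23, and Lmnb1 lay 0.09 below it. After each library was centred on the median level of that chromosome's genes, the difference was -0.15 (adjusted p = 0.0981). Between rejuvenated old and old MSCs the difference was 0.10 (95% interval -0.05 to 0.26, adjusted p = 0.285). The highest of the 18 Lmnb1 values was that of rejuvenated old replicate 1, and without it the difference was 0.06.

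Lmnb2 (gene number 16907, chromosome 10 from 80901363 to 80918245) encodes lamin B2, the other B-type lamin. Its group means were 541 ± 34.8 (SD, n = 6) in young MSCs, 549 ± 27.3 in old MSCs and 609 ± 60.6 in rejuvenated old MSCs, with ranges of 499 to 593, 512 to 590 and 545 to 711. The 3 ranges overlapped. Young and old MSCs differed by -0.02 (95% interval -0.14 to 0.10, adjusted p = 0.754). The sign turned under 3 of the scalings, to 0.05 with equal totals, 0.01 with equal upper quartiles and 0.28 after centring on the chromosome median. After that centring Lmnb2 was called higher in young MSCs (adjusted p = 7.79e-05). Rejuvenated old MSCs stood 0.14 above old MSCs without passing the test (95% interval 0.02 to 0.27, adjusted p = 0.0559). This outcome was kept in 24 of 30 alternatives, over which the adjusted p ran from 0.0231 to 0.156, so the call sat near the threshold. The highest value was again that of rejuvenated old replicate 1, and without it the difference was 0.10 (adjusted p = 0.156). Against young MSCs Lmnb2 was higher by 0.17 in rejuvenated old MSCs (SE 0.06, adjusted p = 0.0138), but with equal totals the call was lost (0.08, adjusted p = 0.266). After centring on the chromosome's median level it was lower, at -0.13 (adjusted p = 0.0408). Its change lay only 0.03 below the median change of chromosome 10 genes, and 48.3% of those genes lay below it. For young against old MSCs its change lay 0.17 above that chromosome's median change.

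The ratio between the B-type lamins differed between young and old MSCs. Lmnb1 against Lmnb2 was 1.17 ± 0.106 (SD, n = 6) in young MSCs, 1.45 ± 0.203 in old MSCs and 1.40 ± 0.0634 in rejuvenated old MSCs, as the ratio of normalized counts, not per length. Young MSCs differed from old (exact permutation test, two-sided, adjusted over 12 comparisons, p = 0.0303) and from rejuvenated old MSCs (exact permutation test, adjusted p = 0.00649). The exact test of rejuvenated old against old MSCs gave an adjusted p = 0.692. The young and old call was lost in the exact test when any one of 6 libraries was left out (young replicates 1, 2, 5 and 6, old replicates 2 and 3), with adjusted p of 0.0519 to 0.0779. Lmna against Lmnb1 was 21.4 ± 2.27 in young MSCs, 22.8 ± 2.84 in old MSCs and 19.9 ± 2.23 in rejuvenated old MSCs (SD, n = 6 each), and the groups overlapped. No comparison of this ratio passed the exact test, with adjusted p of 0.126 for rejuvenated old against old MSCs.

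**Figure D2:**
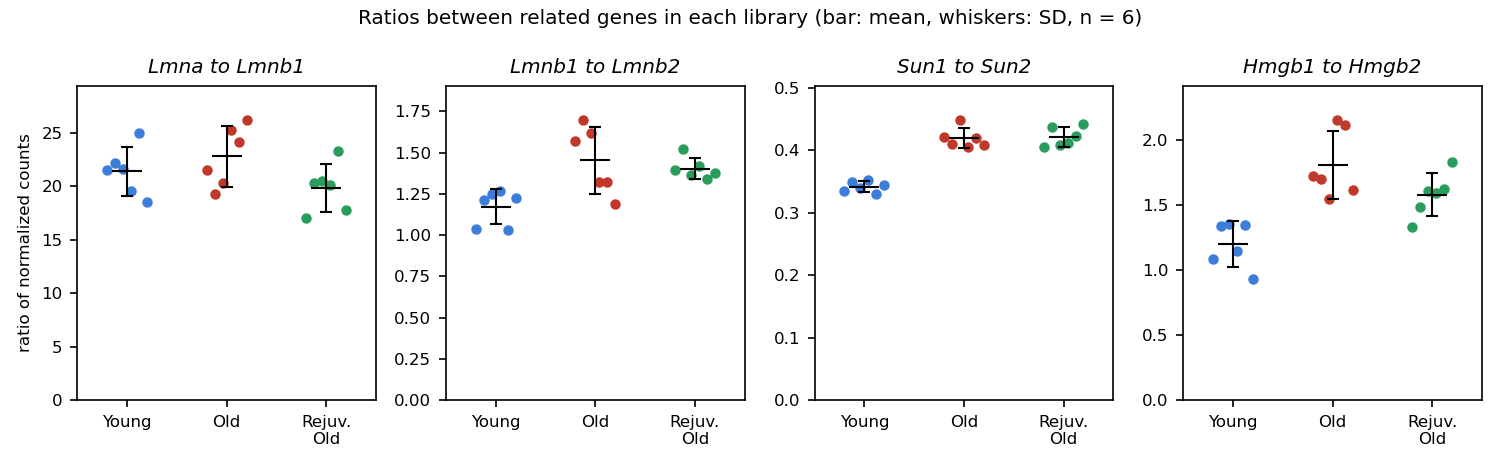
Ratio of normalized counts between related genes (vertical axes, from 0) in each young, old and rejuvenated old library, with the mean (bar) and SD (whiskers, n = 6). Sun1 to Sun2 lies at 0.330 to 0.353 in young MSCs and above 0.40 in every old and rejuvenated old library.

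Tmpo showed the widest difference in RNA among the genes of proteins that bind the lamina. Tmpo (gene number 21917, chromosome 10 from 91147571 to 91181752) encodes the lamina-associated polypeptide 2 family, which includes both membrane forms and a form in the nuclear interior. Its lowest, median and highest normalized counts were 3757, 3989 and 4350 in young MSCs, 1134, 1221 and 1320 in old MSCs, and 1427, 1504 and 1737 in rejuvenated old MSCs. None of the 3 ranges overlapped. Tmpo was 3.27-fold higher in young than in old MSCs (log2 fold change 1.71, SE 0.05, adjusted p = 6.25e-20). It was 1.24-fold higher in rejuvenated old than in old MSCs (0.31, SE 0.05, adjusted p = 1.07e-05) and stayed 2.64-fold below young MSCs. Of all genes tested, 81.9% changed by less than Tmpo between young and old MSCs. The highest rejuvenated old value, 1737, was that of replicate 1. Without it the other 5 libraries had 1484 ± 35.5 (SD, n = 5), and the difference from old MSCs was 0.27 (adjusted p = 1.29e-05). Forms of Tmpo were not separated in this table.

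Lbr (gene number 98386, chromosome 1 from 181815315 to 181842401) encodes the lamin B receptor, which anchors heterochromatin at the inner membrane and also acts in sterol synthesis. Its lowest, median and highest normalized counts were 389, 458 and 481 in young MSCs, 507, 545 and 568 in old MSCs, and 590, 614 and 694 in rejuvenated old MSCs. The 3 ranges were stacked without overlap, with rejuvenated old MSCs farthest from young. Lbr was 1.14-fold higher in rejuvenated old than in old MSCs (log2 fold change 0.19, SE 0.06, adjusted p = 0.00853), and 0.20 higher without replicate 1. Young against old MSCs gave -0.29 (SE 0.06, adjusted p = 4.76e-05), which turned to 0.43 (adjusted p = 1.75e-07) after each library was centred on the median level of chromosome 1 genes. Against young MSCs the rise in rejuvenated old MSCs was 1.40-fold (0.49, SE 0.06), which turned to -0.22 (adjusted p = 0.000710) after the same centring. The median gene of chromosome 1 was lower in young than in old MSCs by 0.69, and 69.5% of its genes lay below Lbr.

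Emd (gene number 13726, chromosome X from 74254674 to 74261563) encodes emerin, a LEM-domain protein of the inner membrane. Its mean was 2255 ± 81.6 (SD, n = 6) in young MSCs, 2451 ± 80.4 in old MSCs and 2563 ± 52.4 in rejuvenated old MSCs. Neighbouring ranges overlapped, at 2128 to 2331, 2310 to 2557 and 2493 to 2616. Emd was lower in young than in old MSCs by 0.12 (SE 0.03, adjusted p = 0.000809), a call that was lost when libraries were scaled to equal totals (-0.05, adjusted p = 0.158), and it was lower by 0.26 (adjusted p = 7.17e-07) after centring on the chromosome median. Rejuvenated old MSCs differed from old by 0.06 (95% interval 0.0021 to 0.13, adjusted p = 0.0916).

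**Figure D3:**
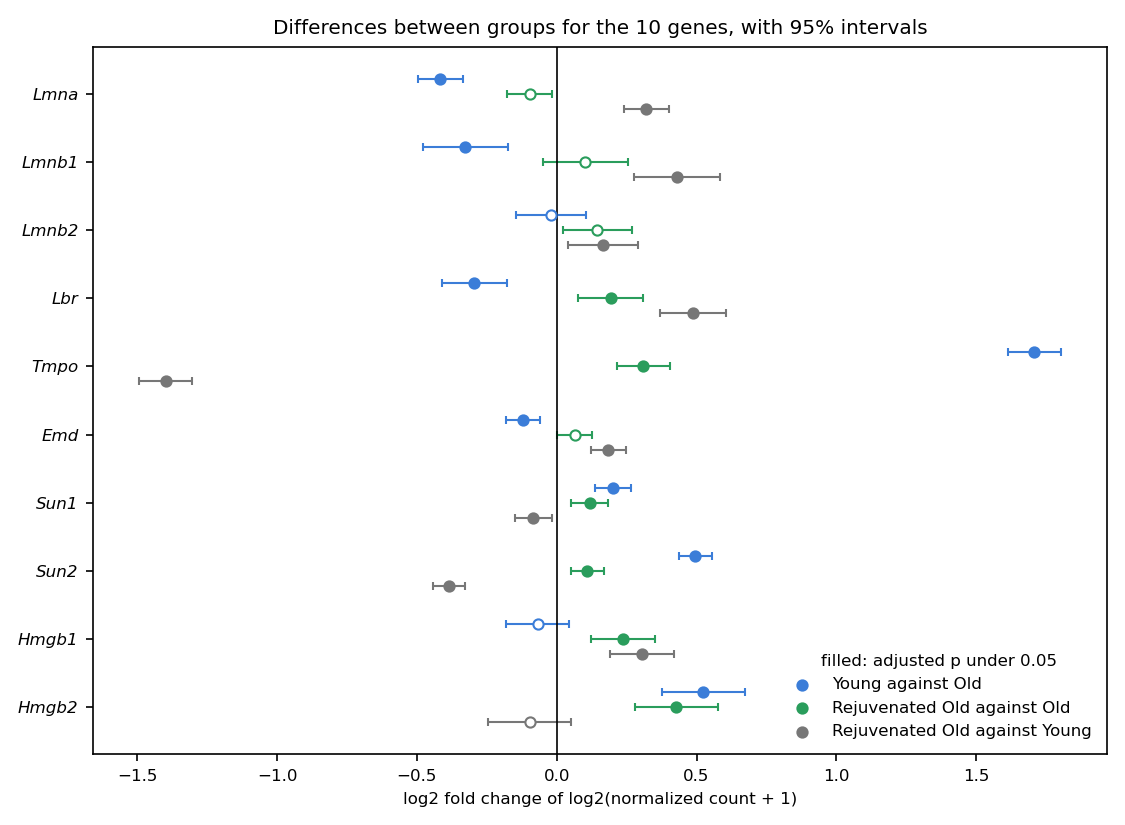
Log2 fold changes (horizontal axis) of the 10 genes in young against old (blue), rejuvenated old against old (green) and rejuvenated old against young MSCs (grey), with 95% intervals, filled where the adjusted p is under 0.05. All but Lmna lie right of 0 in green; the signs of Lbr in blue and grey, of Lmnb2 in blue and grey and of Hmgb1 in blue each turn under at least 1 other scaling.

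The SUN genes, which encode the inner membrane part of the bridge between lamina and cytoskeleton, were both higher in young than in old MSCs. Sun2 (gene number 223697, chromosome 15 from 79724068 to 79742536) had lowest, median and highest normalized counts of 5516, 5637 and 5928 in young, 3882, 4028 and 4188 in old, and 4227, 4321 and 4553 in rejuvenated old MSCs. The ranges did not overlap, and rejuvenated old MSCs lay just above the old range. Sun2 was 1.41-fold higher in young than in old MSCs (log2 fold change 0.50, SE 0.03, adjusted p = 9.22e-14) and 1.08-fold higher in rejuvenated old than in old MSCs (0.11, SE 0.03, adjusted p = 0.00313). It stayed below young MSCs by 0.39 (SE 0.03). After centring on the chromosome median, the difference of young against old MSCs was 0.33 (adjusted p = 9.19e-09) and that of rejuvenated old against young MSCs -0.17 (adjusted p = 7.94e-05).

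Sun1 (gene number 77053, chromosome 5 from 139200564 to 139249839) had lowest, median and highest normalized counts of 1889, 1942 and 1986 in young, 1636, 1676 and 1747 in old, and 1716, 1861 and 1928 in rejuvenated old MSCs. The rejuvenated old libraries overlapped both other groups. Sun1 was 1.15-fold higher in young than in old MSCs (0.20, SE 0.03, adjusted p = 3.42e-06) and 1.08-fold higher in rejuvenated old than in old MSCs (0.12, SE 0.03, adjusted p = 0.00468). Against young MSCs it was lower by 0.08 (adjusted p = 0.0173), a call that was lost without rejuvenated old replicate 1 (adjusted p = 0.0549) and after centring on the chromosome median (adjusted p = 0.283), while with equal totals the difference was -0.17 (adjusted p = 2.59e-05). The ratio of Sun1 to Sun2 was 0.342 ± 0.00881 in young MSCs, 0.419 ± 0.0160 in old MSCs and 0.422 ± 0.0153 in rejuvenated old MSCs (SD, n = 6 each). Young MSCs differed from both others (exact permutation test, adjusted p = 0.00649 for each), and rejuvenated old and old MSCs gave an adjusted p = 0.812 in the exact test. The log2 ratio of rejuvenated old MSCs stood 0.01 above that of old MSCs, and ran from -0.0066 to 0.028 with 1 library left out.

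RNA of both chromatin protein genes was higher in rejuvenated old than in old MSCs. Hmgb2 (gene number 97165, chromosome 8 from 57511843 to 57515999) encodes a DNA-bending protein that is abundant in dividing cells. Its lowest, median and highest normalized counts were 649, 657 and 824 in young MSCs, 421, 496 and 559 in old MSCs, and 582, 655 and 701 in rejuvenated old MSCs. Every rejuvenated old library lay above every old one, and 5 of the 6 lay within the young range. Hmgb2 was 1.34-fold higher in rejuvenated old than in old MSCs (log2 fold change 0.43, SE 0.07, adjusted p = 4.96e-05), and 0.41 higher without replicate 1. It was 1.44-fold higher in young than in old MSCs (0.52, SE 0.07, adjusted p = 4.68e-07). Rejuvenated old and young MSCs differed by -0.10 (95% interval -0.24 to 0.05, adjusted p = 0.213), which passed the test with equal totals (-0.19, adjusted p = 0.0205).

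Hmgb1 (gene number 15289, chromosome 5 from 149046702 to 149053057) encodes the more widely expressed relative, which also acts as an alarm signal outside the cell. Its lowest, median and highest normalized counts were 711, 870 and 892 in young MSCs, 814, 875 and 912 in old MSCs, and 932, 1049 and 1079 in rejuvenated old MSCs. Young and old MSCs overlapped, and all rejuvenated old libraries lay above both. Hmgb1 was 1.18-fold higher in rejuvenated old than in old MSCs (0.24, SE 0.05, adjusted p = 0.00131) and 1.24-fold higher than in young MSCs (0.31, SE 0.05, adjusted p = 2.07e-05). Young and old MSCs differed by -0.07 (95% interval -0.18 to 0.05, adjusted p = 0.246), with a sign that turned to 0.0061 with equal totals. Rows for the retrocopies Hmgb1-ps10 and Hmgb1-rs17 held at most 2 and 4 reads in any library. The ratio of Hmgb1 to Hmgb2 was 1.20 ± 0.176 in young MSCs, 1.81 ± 0.261 in old MSCs and 1.58 ± 0.166 in rejuvenated old MSCs (SD, n = 6 each). Young MSCs differed from old (exact permutation test, adjusted p = 0.00649) and from rejuvenated old MSCs (exact permutation test, adjusted p = 0.0208), whereas the exact test of rejuvenated old against old MSCs gave an adjusted p = 0.166.

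Rejuvenated old MSCs, set against young MSCs, had higher levels of 6 of the 10 genes (Lmna, Lmnb1, Lmnb2, Lbr, Emd, Hmgb1). They had lower levels of 3 (Tmpo, Sun1, Sun2), and Hmgb2 did not pass the test. Lmnb2 and Lbr turned after chromosome centring, although the change of Lmnb2 was near the median change of its chromosome. With equal totals Lmnb2 lost its call and Hmgb2 passed. Sun1 lost its call without rejuvenated old replicate 1 and after chromosome centring. Over all genes tested, 44.1% were called higher and 41.5% lower, and 70.5% of genes did not overlap between the groups against 7 of the 10 genes. Lbr and Hmgb1 were higher in rejuvenated old MSCs than in either other group, as scaled by the authors, although the sign for Lbr against young MSCs turned after chromosome centring.

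Per kilobase of annotated exon, the order of the levels was led by Lmna in every group, at 2304 ± 86.5 normalized counts per kilobase in young MSCs, 3073 ± 94.8 in old MSCs and 2879 ± 185 in rejuvenated old MSCs (SD, n = 6 each). Sun2 at 1048 ± 28.9 and Emd at 896 ± 32.4 followed in young MSCs, and they changed places in old MSCs, at 743 ± 23.6 and 974 ± 32.0. Tmpo followed these in young MSCs at 366 ± 18.1 and came last in old MSCs at 112 ± 6.17. In old MSCs, Tmpo and Lbr (114 ± 5.40) did not differ by more than their SD. Hmgb1 stood at 173 ± 8.13 and Hmgb2 at 162 ± 17.4. The B-type lamins stood at 268 ± 28.3 for Lmnb1 and 128 ± 6.37 for Lmnb2 per kilobase in old MSCs. The exon length is the union over annotated forms, which may be longer than the form in these cells.

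The median difference between young and old MSCs varied by chromosome, and the part of this in the values of the 10 genes was not tested. The median gene was lower in young MSCs by 0.69 on chromosome 1 and by 0.75 on chromosome 16 and higher by 0.61 on chromosome 7, while all chromosomes together had a median of -0.02. Tmpo lay 1.90 above the median gene of chromosome 10, and 94.2% of the genes tested there lay below it. Lmna lay 0.46 below the median gene of chromosome 3. Lmnb1 and Hmgb1 were within 0.1 of their chromosome's median. Between rejuvenated old and old MSCs the chromosome medians stayed within 0.1 of 0, and all 6 calls among the 10 genes held after centring.

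**Figure D4:**
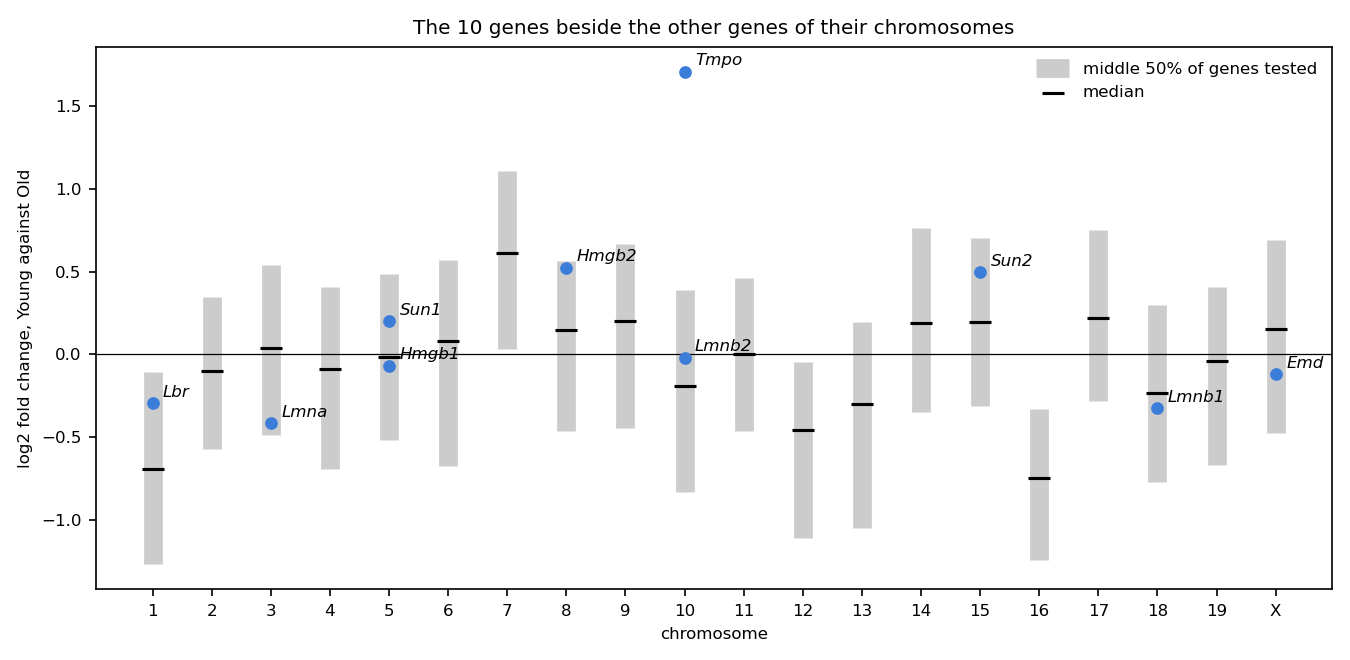
Log2 fold change of young against old MSCs (vertical axis) by chromosome (horizontal axis), with the genes between the quartiles (grey), their median (black line) and the 10 genes (blue points). Lbr lies at -0.29, above a chromosome 1 median of -0.69, and its sign turns when libraries are centred on the median level of that chromosome's genes.

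Other genes of the envelope were followed through lists written by hand. Of 17 other inner membrane, LINC complex and lamina-binding genes, 4 were higher in rejuvenated old than in old MSCs (Tmem43, Tor1a, Banf1, Lemd2) and 2 lower (Syne1, Syne3), beside 21.0% higher and 20.6% lower over all genes tested. Tmem43, which encodes the emerin-binding protein LUMA, had 4247 ± 61.6 (SD, n = 6) normalized counts in old and 5417 ± 310 in rejuvenated old MSCs (log2 fold change 0.35, adjusted p = 6.09e-08). Syne1, which encodes nesprin-1, a partner of the SUN proteins, fell by 0.37 (adjusted p = 3.68e-08). The list's median was 0.0026, against 0.01 for all genes tested. Between young and old MSCs, all 17 passed the test, 8 higher and 9 lower, where 41.6% of all genes tested were higher and 44.1% lower. They ran from Lemd2, a LEM-domain protein like emerin, at 1.28 (adjusted p = 5.08e-21) to Tor1aip2, an activator of torsins in the endoplasmic reticulum, at -1.38 (adjusted p = 1.81e-12).

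Genes of lamin A maturation, which are enzymes and Narf, a prelamin A-binding factor, formed a further list. Among these 6 genes, 0 passed the test upwards and 2 downwards in rejuvenated old against old MSCs (all genes: 21.0% and 20.6%). Zmpste24, the protease that makes the last cut in lamin A maturation, had 1732 ± 120 (SD, n = 6) normalized counts in old and 1324 ± 131 in rejuvenated old MSCs (log2 fold change -0.39, adjusted p = 1.40e-05), and Icmt, which methylates the farnesylated end, fell by 0.13 (adjusted p = 0.00655). Between young and old MSCs, 1 was higher and 4 were lower (all genes: 41.6% and 44.1%). Fnta, the alpha subunit of farnesyltransferase, was higher in young MSCs by 0.16 (adjusted p = 0.00191), and Fntb, its beta subunit, was lower by 0.77 (adjusted p = 2.43e-12).

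Nuclear pore genes encode the channels through the envelope. Of 30 tested among 31, 7 were higher and 6 lower in rejuvenated old against old MSCs, near the background of 21.0% and 20.6%, with Nup37 at 0.26 (adjusted p = 0.000589) and Nup214 at -0.20 (adjusted p = 0.000350) at the ends of those called. In young against old MSCs, 11 were higher and 14 lower (all genes: 41.6% and 44.1%), from Nup62 at 1.24 to Aaas at -1.38. Among 10 other high mobility group and heterochromatin protein 1 genes, the call was higher for 0 and lower for 3 in rejuvenated old MSCs (Hmgn5, Hmga2, Hmgb3), against the same 21.0% and 20.6% of all genes. Hmgb3, the close relative of Hmgb1 and Hmgb2, was at -0.31 (adjusted p = 0.0117), and Hmgn5, a nucleosome-binding protein, at -0.45 (adjusted p = 1.02e-06). Between young and old MSCs, 4 of these 10 were higher and 4 lower, near the 41.6% and 44.1% of all genes, from Cbx5, which encodes heterochromatin protein 1 alpha, at 0.54 to Hmgn2 at -2.14.

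**Figure D5:**
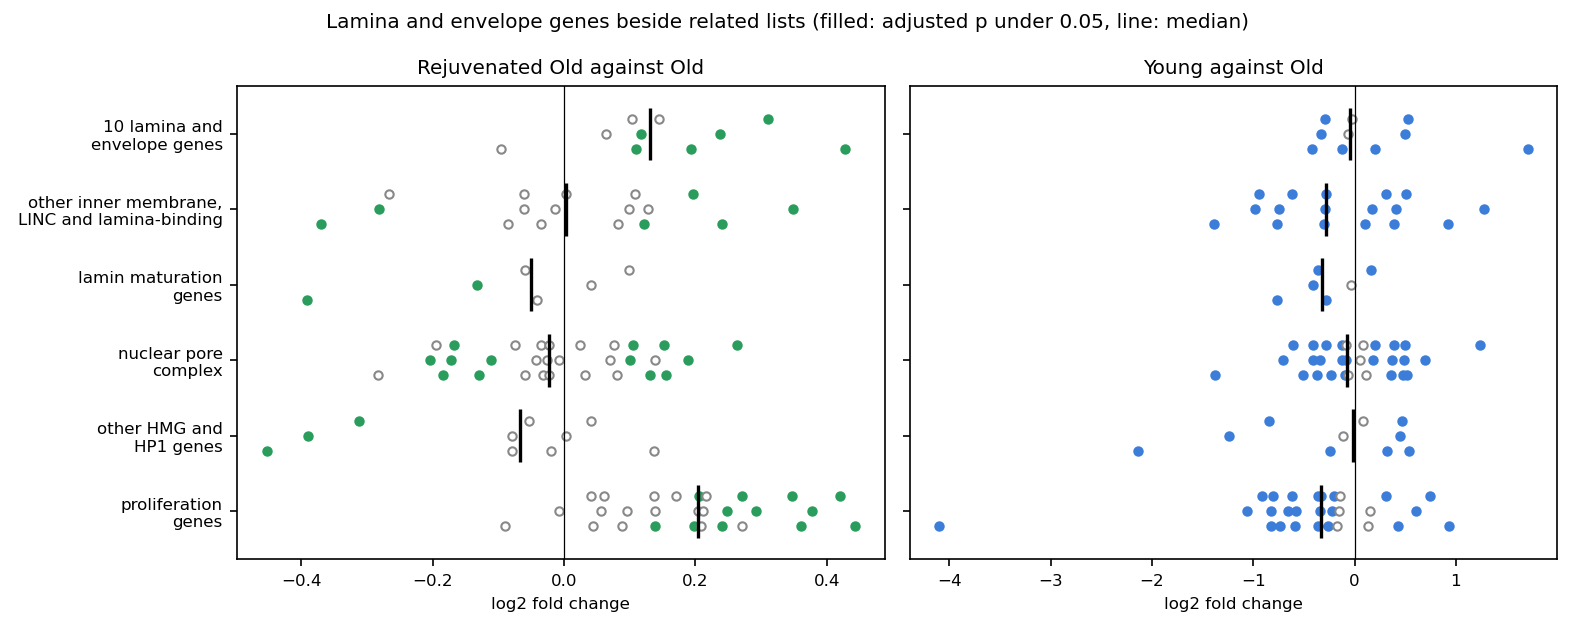
Log2 fold changes (horizontal axes) in rejuvenated old against old (left) and young against old MSCs (right) for the 10 genes and for 5 related lists; each point is a gene, filled where the adjusted p is under 0.05, and lines are medians. The medians of the 10 genes (0.13) and of the proliferation genes (0.20) lie right of 0 on the left, and that of the proliferation genes (-0.33) lies left of 0 on the right.

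The last of these lists holds genes of cell division. Of 28, 12 were higher and 0 lower in rejuvenated old against old MSCs (all genes: 21.0% and 20.6%), with a median of 0.20, and Ube2c, which drives mitotic exit, was highest among them at 0.44 (adjusted p = 0.000311). The summed normalized count of the list ran from 26818 to 31408 in old and from 30138 to 36135 in rejuvenated old MSCs. Young MSCs had 21352 to 25684, below every old library, with 18 genes lower and 5 higher than in old MSCs (all genes: 44.1% and 41.6%). This separation rested on Rrm2, a subunit of ribonucleotide reductase, at 259 ± 42.3 (SD, n = 6) in young and 4415 ± 276 (SD, n = 6) in old MSCs. Without it, a sum computed after the data were seen, the other 27 genes ran from 21103 to 25360 in young MSCs, from 22675 to 26611 in old MSCs and from 24698 to 30379 in rejuvenated old MSCs, so that young and old MSCs overlapped. By log2 fold change of young against old MSCs, Rrm2 was lowest at -4.10, and Mcm3, a subunit of the replicative helicase, highest at 0.93. Over the 5 lists together, with 17, 6, 30, 10 and 28 genes tested, 23 were higher and 13 lower in rejuvenated old MSCs. The shares over all genes tested were 21.0% and 20.6%. The cell division list held 12 of the 23 higher genes and 0 of the 13 lower ones. The other lists, in the order above, gave 4, 0, 7 and 0 higher and 2, 2, 6 and 3 lower. Without replicate 1, an alternative chosen after the data were seen, the pooled counts were 21 and 15. The part of proliferation in the rise of Hmgb2, Tmpo or Hmgb1 was not tested.

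The genes with the profile nearest to each of the 10 were found by the root mean square difference of centred log2 profiles over the 18 libraries. Nearest were Cdc37 and Txnl4a for Lmna (0.0447 and 0.0458), Hspd1 and Ddx24 for Lmnb1 (0.0908 and 0.0975), and Rcc1 and Ptbp1 for Lmnb2 (0.0778 and 0.0821). Rabepk and Dtd2 were nearest to Lbr (0.0845 and 0.0847), Pak3 and Eif3c to Tmpo (0.0701 and 0.0772), and Zfand3 and Vdac1 to Emd (0.0424 and 0.0486). Ubtf and Ryk were nearest to Sun1 (0.0479 and 0.0498), Kbtbd2 and Trmt1 to Sun2 (0.0479 and 0.0483), Med21 and Rheb to Hmgb1 (0.0616 and 0.0781), and Kif4, a mitotic kinesin, and Rpf2 to Hmgb2 (0.116 and 0.120). In no case was the nearest gene another of the 10. Some of these genes share exon bases with others. Emd shares 13.6% of its own with the transcribed pseudogene Gm14686 on the same strand. Lbr shares 440 exon bases, 9.24% of its own, with Dnah14 on the other strand, which had a mean of 3.61 normalized counts, and Hmgb1 shares 42 bases with Uspl1 on the other strand, which had 1099. The kit keeps strand, but whether counting used it is not given in the sources used here.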

How the data were processed

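RNA was sequenced from 6 young, 6 old and 6 rejuvenated old MSC cultures with a stranded poly(A) kit. According to the study's methods and processing notes, the authors aligned reads to mm10 with HISAT2, used StringTie and featureCounts for counting and DESeq2 for normalization. Versions and strand setting are not given in the sources used here. The unit of the deposited table is a signal, reads divided by a size factor for the library. Whole reads were recovered for 100% of values (tolerance 0.01 reads).

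Tests used limma 3.58.1 (R 4.3.3) on log2(value + 1), with 1 mean per group over all 18 libraries, a prior variance that follows the mean, and Benjamini-Hochberg adjustment over the 14353 genes whose mean reached 10. Genes were called under 0.05. Fold changes are on the log2(value + 1) scale. Ratios were tested by an exact two-sided permutation test (smallest p 0.00216), adjusted over 12 comparisons. Alternatives were the pseudocount, the filter, scaling to equal totals or upper quartiles, centring on chromosome medians, 2-group fits, a single prior variance, a replicate block, each library left out in turn, and DESeq2 1.42.0 and edgeR 4.0.16 on the recovered reads. Centring subtracted, in each library, the median log2 level of each chromosome's genes, which is not the median fold change of that chromosome. The tests were tried on simulated data. Python 3.11.15, pandas 2.3.3, numpy 2.4.6, scipy 1.17.1 and matplotlib 3.10.9 were used. Positions and exon lengths follow GRCm38.p6 annotation, and promoters follow RefSeq.

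The 10 genes and the lists were chosen with earlier results of these data known. Beside the 10 genes, the text names from each list the called gene with the largest rise and the largest fall in each comparison with old MSCs, the 2 named genes nearest in profile to each of the 10, and related rows. Members of counts of 5 or fewer are also named, except in some lists of young against old MSCs, where only the ends are. Replicate numbers did not pair libraries.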

Additional observations from a re-analysis of the deposited data

Results flagged for a closer look

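A total of 4 values lay far from the other 5 libraries of their group by Dixon's test, of 42 groups of 6 libraries tested, where chance gives about 1 in 20. Lmna in young replicate 2 was 14401 normalized counts, against 12961 to 13487 in the others. Tmpo in rejuvenated old replicate 1 was 1737, against 1427 to 1511. That library also held the highest level in its group of the 45 genes with at most 3 reads in any old library. Lbr in rejuvenated old replicate 2 was 694, against 590 to 622. The ratio of Sun1 to Sun2 in old replicate 3 was 0.449, against 0.406 to 0.421.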

How the results depend on the processing

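The 6 genes higher in rejuvenated old than in old MSCs were called higher under each of the 30 alternatives. With Lmnb2 the number higher was 7 under equal upper quartiles, chromosome centring or DESeq2. It was also 7 without old replicate 6 or without rejuvenated old replicate 2 or 5. The number lower was 0, and it was 1, Lmna, with a pseudocount of 10, a mean of at least 50, equal totals, DESeq2 or edgeR, and 0 to 1 with 1 library left out. The number lower in young than in old MSCs was 4, and 2 after centring on chromosome medians. Lbr and Lmnb2 were then called higher in young MSCs. That centring turned Lbr to 0.43 for young against old and -0.22 for rejuvenated old against young, and Lmnb2 to 0.28 and -0.13. Equal totals turned Lmnb2 to 0.054 and Hmgb1 to 0.0061 for young against old, and equal upper quartiles turned Lmnb2 to 0.014. With 1 library left out, Lmnb2 ran from -0.047 to 0.0025 for young against old. The causes were not tested. Left-out ranges of the log2 ratios were -0.36 to -0.26 for Lmnb1 to Lmnb2 in young against old, -0.10 to 0.0052 for the same ratio in rejuvenated old against old, and -0.0066 to 0.028 for Sun1 to Sun2 in rejuvenated old against old.

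Same-numbered libraries did not deviate together (r from -0.152 to 0.0736 over 18 pairs, 0 above 0.1). In a fit with the replicate block no call among the 10 genes changed. For the ratios, a block test by sign flips of 6 pairs has the same log2 differences by construction for young against old (-0.31 for Lmnb1 to Lmnb2, -0.29 for Sun1 to Sun2, -0.59 for Hmgb1 to Hmgb2) and for rejuvenated old against young (0.26, 0.30 and 0.40). None passed, with exact adjusted p of 0.0750 to 0.107 over the 12 comparisons. The smallest unadjusted p that sign flips of 6 pairs allow is 0.0312. After the adjustment it passes only if most of the 12 comparisons reach it. The sign flips therefore cannot decide whether these ratios differ.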
